A study of Mus musculus with 21 samples.

Results

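The 10 genes described here, Kcnk1, Kcnk2, Kcnk3, Kcnk4, Kcnk5, Kcnk6, Kcnk9, Kcnk10, Kcnk12 and Kcnk13, encode tandem-pore-domain (K2P) potassium channels and were chosen by name from the 52550 genes counted. RNA-Seq was performed on spiral ganglion neurons (SGNs), the auditory neurons that carry signals from hair cells to the brainstem, at the embryonic stage E15.5 and on postnatal days 1, 8, 14 and 30 (P1, P8, P14 and P30), on hair cells (HCs) at P12 and on glial cells of the spiral ganglion at P8, with 3 libraries in each of the 7 groups. All mice were C57BL/6 and carried 1 copy of the reporter allele Rosa26-CAG-loxp-stop-loxp-tdTomato, which turns red where Cre has acted. SGNs were labelled by ShhCre/+, HCs by Atoh1-CreER+ with tamoxifen given at P0 and P1, and glia by vGlut3-iCreER/+ with tamoxifen given at P2 and P3, so the Cre line differed between cell types as well as the cells.

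Each SGN library held 69 to 195 manually picked tdTomato+ cells (median 103), each glial library 86 to 125, and each HC library about 1200. The HC libraries mixed cochlear and vestibular hair cells. The vGlut3-iCreER/+ line also labels inner hair cells, and the glial samples were therefore taken from the dissected ganglion. The labels do not say that libraries of a group came from separate animals, so the p-values below measure the spread between libraries, which may be partly technical. In these bulk samples, fewer cells of a type and less RNA per cell cannot be told apart.

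K2P subunits have a pair of pore loops each and assemble as dimers, so that 4 loops line a single potassium-selective pore. The channels are open at rest, and their leak current sets the resting membrane potential and the input resistance of neurons. They are grouped by what gates them. Kcnk1 (TWIK-1) and Kcnk6 (TWIK-2) are weak inward rectifiers, and TWIK-1 is held largely in recycling endosomes. Kcnk3 (TASK-1) and Kcnk9 (TASK-3) close in extracellular acid and can form mixed dimers. Kcnk2 (TREK-1), Kcnk10 (TREK-2) and Kcnk4 (TRAAK) respond to membrane stretch and lipids. Kcnk5 (TASK-2) opens in alkaline conditions and is known from epithelia, and Kcnk13 (THIK-1) and Kcnk12 (THIK-2) are the halothane-inhibited subunits.

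The selectivity filter, the narrowest stretch of the pore, is shown for the 6 members on which the results turn. Exactly 2 filter stretches were found in the coding sequence of each of the 14 K2P genes in the table, using the transcripts of the GENCODE M21 annotation on GRCm38. The 15 bases of the filter are in capitals and 6 flanking bases on either side in lower case, written 5′ to 3′ on the coding strand.
Kcnk1 filter 1: ctctccACCACAGGCTATGGCcacacg
Kcnk1 filter 2: ctgagcACCATCGGCCTGGGGgactat
Kcnk6 filter 1: gtcaccACCGTGGGCTATGGCtacacg
Kcnk6 filter 2: ctgtccACCATTGGCCTAGGGgactac
Kcnk9 filter 1: atcacaACTATCGGATATGGAcatgct
Kcnk9 filter 2: ttgactACTATAGGGTTCGGCgatttt
Kcnk3 filter 1: atcaccACCATCGGCTATGGTcatgcg
Kcnk3 filter 2: ctcaccACCATCGGCTTCGGCgactat
Kcnk10 filter 1: atcacaACCATAGGGTATGGGaatatt
Kcnk10 filter 2: ctgaccACAGTAGGCTTTGGTgatttt
Kcnk5 filter 1: atcaccACCATCGGTTATGGCaatgtg
Kcnk5 filter 2: atctccACCATTGGCTTTGGGgacttt

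In filter 2 the fourth codon was CTG in Kcnk1 and CTA in Kcnk6, whereas the other 4 genes shown had TTC or TTT there. In filter 1 the second codon of Kcnk1 was ACA. Over the 45 pairs that the 10 members form, 9 to 14 of the 15 bases were identical in each filter, with a median of 12 in filter 1 and of 11 in filter 2. Kcnk1 and Kcnk6 shared 12 and 13 bases, Kcnk3 and Kcnk9 shared 12 and 12, and Kcnk1 and Kcnk9, the 2 members with the highest mean CPM in SGNs from P1 on, shared 10 and 9.

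On GRCm38, Kcnk1 lies on the plus strand at chr8:125995170-126030685, Kcnk9 on the minus strand at chr15:72501089-72546340, Kcnk3 on the plus strand at chr5:30588170-30625271 and Kcnk10 on the minus strand at chr12:98429437-98578310. Kcnk6 lies on the minus strand at chr7:29221926-29232515 and Kcnk5 on the minus strand at chr14:20140057-20181809. The deposited length of Kcnk9 was 1209 bases, whereas the union of its exons in GENCODE M21 was 12300 bases, so levels of Kcnk9 relative to other genes depend on the annotation used for counting. Exons of Kcnk1, Kcnk2 and Kcnk3 overlap antisense genes by 179, 604 and 229 bases, and whether counting used strand is not given in the sources used here.

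Library totals ran from 10368240 to 37287489 counts. The summed level of 8 SGN markers was 4684 to 19088 CPM (counts scaled to each library total) in the SGN libraries, 720 to 787 in HCs and 152 to 1488 in glia. The summed level of 8 hair cell markers was 7933 to 8403 CPM in HCs and at most 1294 elsewhere, and that of 8 glial markers 16589 to 22352 CPM in glia and at most 2722 elsewhere. A member of each list went the other way. Calb2, of the hair cell list, averaged 663 CPM in P14 SGNs and 108 in HCs. S100b, of the glial list, averaged 263 CPM in P30 SGNs and 26.2 in glia. Part of these sums in SGNs therefore came from genes that SGNs held at a higher level. Glial replicate 1 held the highest SGN marker level of the 3 glial libraries, 1488 CPM against 318 and 152. Blood and connective tissue markers (12 genes) were highest in replicate 1 at all 5 SGN ages, at 112 to 587 CPM against 4.15 to 174 in the other SGN libraries. These markers summed to 320 to 366 CPM in HCs and were highest in glia, at 2215 to 3415 CPM.

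Levels of a gene across libraries are given as CPM, and levels between genes as TPM, which also divides counts by gene length. The floor was set at 3 counts, about the highest mean count that an observed count of 0 allows. More than 3 counts were found for Kcnk1 in all 21 libraries, for Kcnk3 and Kcnk9 in 20 each, for Kcnk10 in 16, Kcnk2 in 15, Kcnk5 in 13, Kcnk4 in 9, Kcnk12 in 8, Kcnk6 in 5 and Kcnk13 in 4. This floor and the intervals below cover counting error only. Between 64.3 and 75.0% of the counts from 1 to 20 in a library were even, so both mates of a read pair may have been counted. Each count is then not a separate event, and intervals from halved counts, an alternative chosen after seeing the data, are given beside the others. A gene was tested if it exceeded 1 CPM in all 3 libraries of at least 1 group. Kcnk1, Kcnk2, Kcnk3, Kcnk9 and Kcnk10 passed this filter among the SGN ages, and Kcnk5 and Kcnk6 also passed it when HCs and glia were included, Kcnk5 only through glia and Kcnk6 only through HCs. Of the members tested, only Kcnk1 passed in HCs and in glia as well as in SGNs. The other 6 entered through the cell type where they were high. The numbers of members called between cell types are therefore a description and support nothing. No p is given for these 6 where that cell type is one of those compared.

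Kcnk1 was the most abundant K2P gene in SGNs from P8 on, and it rose from E15.5 through P8. Kcnk1 stood at 18.2, 8.33 and 26.6 CPM in the 3 libraries at E15.5, at 35.1, 56.6 and 88.3 CPM at P1, and at 169.8, 237 and 186 CPM at P8. The libraries of these 3 ages did not overlap, each age lying wholly above the one before. At P14 it was at 231, 284 and 294 CPM and at P30 at 203, 316 and 227 CPM, and the libraries of P8, P14 and P30 overlapped. The log2 fold change of Kcnk1 was 1.92 ± 0.48 (SE) from E15.5 to P1 (limma with Benjamini-Hochberg adjustment, adjusted p = 0.019) and 2.07 ± 0.28 from P1 to P8 (adjusted p = 1.7e-04). From E15.5 to P30 the log2 fold change was 4.41 ± 0.46 (limma, adjusted p = 1.6e-06). The first of these steps rested on single libraries: without E15.5 replicate 2 it was 1.43 (limma, adjusted p = 0.069) and without P1 replicate 2 it was 1.86 (adjusted p = 0.0505).

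Kcnk9, the acid-sensitive TASK-3 subunit, rose to P8 and then fell. Its levels were 10.5, 6.72 and 2.65 CPM at E15.5, 26.1, 37.9 and 41.1 CPM at P1, and 47.8, 87.0 and 55.6 CPM at P8. Every P1 library was above every E15.5 library, and every P8 library above every P1 library. Kcnk9 stood at 33.4, 32.9 and 46.1 CPM at P14 and at 14.4, 23.4 and 16.6 CPM at P30. All 3 P14 libraries lay below the P8 range, at the level of P1, and all 3 P30 libraries lay below the P14 range, still above E15.5. Glial markers in the SGN libraries were also highest at P8, at 1664 to 2722 CPM against 190 to 407 at P1, 609 to 1292 at P14 and 302 to 641 at P30. Kcnk9 in the glial libraries themselves was at most 17.97 CPM. In order of replicate, the P8 SGN libraries held 2722, 1664 and 2023 CPM of glial markers. The part of glial RNA in the Kcnk9 values was not tested. The log2 fold change was 2.75 ± 0.56 from E15.5 to P1 (limma, adjusted p = 0.0061) and 1.09 ± 0.27 from P1 to P8 (adjusted p = 0.016). From P8 to P30, a comparison added after the values were seen, it was -1.71 ± 0.32 (limma, adjusted p = 0.0032). The separate steps of the decline did not pass, with log2 fold changes of -0.64 ± 0.28 from P8 to P14 (limma, adjusted p = 0.37) and -1.07 ± 0.35 from P14 to P30 (adjusted p = 0.44). Kcnk9 remained higher at P30 than at E15.5, by 2.12 ± 0.58 on the log2 scale (limma, adjusted p = 0.0084). The step from P1 to P8 was 0.84 (adjusted p = 0.12) without P1 replicate 1 and 0.83 (adjusted p = 0.089) without P8 replicate 2, both in limma fits of the remaining libraries. Without E15.5 replicate 3 the changes from E15.5 to P1 and to P30 were 2.15 and 1.52, and both were still called (limma, adjusted p of 0.029 and 0.048).

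**Figure D1:**
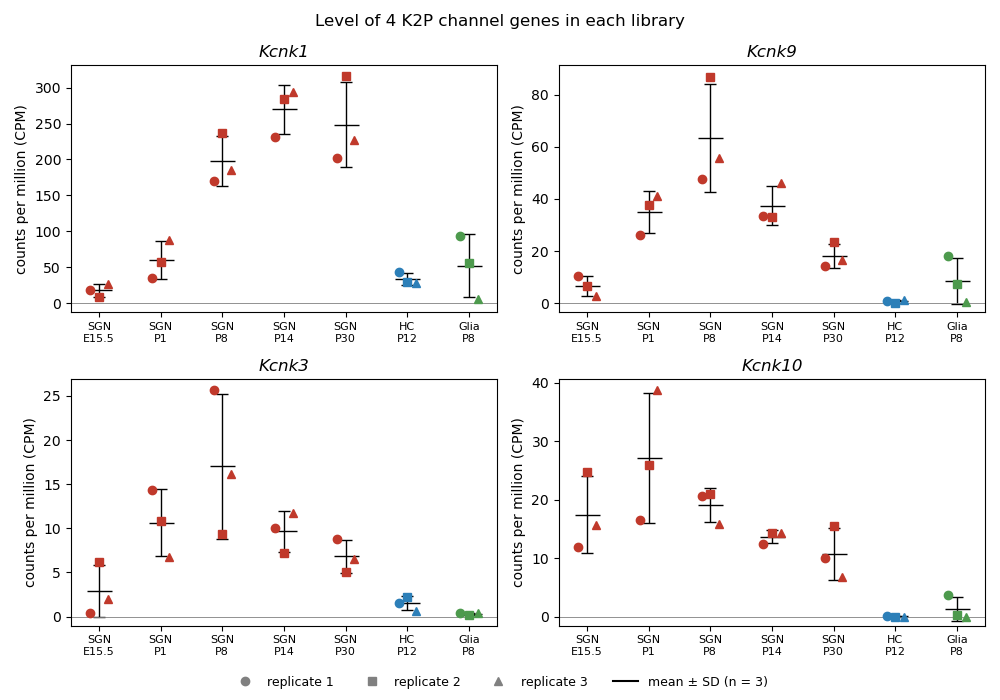
CPM of Kcnk1, Kcnk9, Kcnk3 and Kcnk10 in each library (points) with the group mean and SD, for SGNs at 5 ages, HCs at P12 and glia at P8. Kcnk1 climbed from a mean of 17.7 CPM at E15.5 to 269.6 CPM at P14. Mean Kcnk9 was 6.62 CPM at E15.5, peaked at 63.5 CPM at P8 and was 18.2 CPM at P30.

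Kcnk3, the TASK-1 partner of Kcnk9, was present at lower counts with a similar order of means. It stood at 0.466, 6.24 and 2.02 CPM at E15.5, at 14.3, 10.8 and 6.75 CPM at P1, and at 25.7, 9.31 and 16.2 CPM at P8. The P1 libraries lay above those of E15.5, although E15.5 replicate 2 was close to the lowest of them, and P8 overlapped P1. At P14 the levels were 10.1, 7.18 and 11.7 CPM and at P30 they were 8.77, 5.10 and 6.58 CPM, the P30 libraries all below those of P8. The test over all 5 ages called Kcnk3 (limma F test, adjusted p = 0.035), but no single step passed. The log2 fold change from E15.5 to P1 was 2.53 ± 0.86 (limma, adjusted p = 0.067) and from P8 to P30 -1.07 (adjusted p = 0.25). From E15.5 to P30 it was 2.25 ± 0.89 (limma, adjusted p = 0.052), and this passed without E15.5 replicate 2 (3.19, adjusted p = 0.041) or P30 replicate 2 (2.48, adjusted p = 0.047). The call over all ages was lost without any 1 of the 3 E15.5 libraries (limma, adjusted p = 0.0596 to 0.16), without P8 replicate 3 (adjusted p = 0.0508) and without P30 replicate 3 (adjusted p = 0.0531).

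Kcnk10, the stretch-gated TREK-2, did not pass the test at any age. It stood at 11.9, 24.8 and 15.7 CPM at E15.5, at 16.6, 25.9 and 38.7 CPM at P1, and at 20.6, 21.05 and 15.8 CPM at P8. These 3 ages overlapped. It was at 12.5, 14.3 and 14.3 CPM at P14 and at 9.98, 15.6 and 6.78 CPM at P30, and the P14 libraries lay below those of P8. The log2 fold change from E15.5 to P30 was -0.29 and that from P8 to P30 was -0.81 (limma, adjusted p = 0.25), and the test over all ages gave an adjusted p of 0.25 (limma F test).

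Of the 5 members tested between ages, 2 were called from E15.5 to P1, where 8.26% of the 15113 genes tested were called (adjusted p below 0.05 and more than a 2-fold change), and 2 from P1 to P8, where the background was 7.44%. From P8 to P14 limma called 0 of 5, with a background of 0.536%, and from P14 to P30 it called 0 of 5, with a background of 0.0596%. At an unadjusted p under 0.05 there were 2 members in the first of these steps and 1 in the other, and edgeR and DESeq2 called 0 in both. From E15.5 to P30 there were 2 calls against a background of 34.6%, and from P8 to P30 there was 1 against 4.71%. The test over all 5 ages called 3 of 5 members against a background of 37.8%, so that over the whole course a change was common among all genes as well. Over all genes tested, the median log2 fold change lay between -0.03 and 0.07 in these 6 comparisons.

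**Figure D2:**
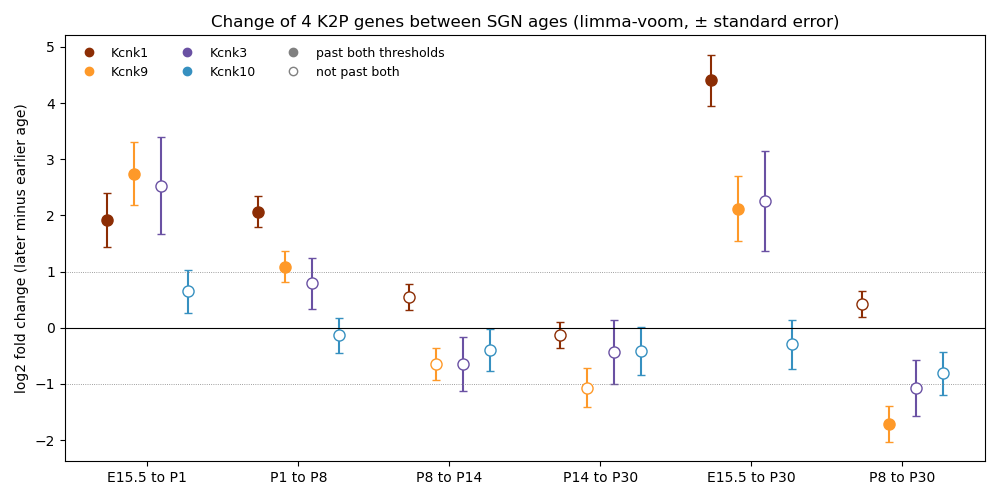
Log2 fold change (later minus earlier SGN age) with its standard error from the limma fit for Kcnk1, Kcnk9, Kcnk3 and Kcnk10 in 6 comparisons of ages, filled where the change passed both thresholds, with dotted lines at a 2-fold change. Kcnk1 and Kcnk9 were both higher at P1 than at E15.5, by 1.92 and 2.75, and from P8 to P30 they read 0.42 and -1.71.

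As a description with no test, the make-up of the summed TPM of the 10 genes shifted from a mixture to mostly Kcnk1. Kcnk1 held 24.1 to 64.4% of it at E15.5, 35.3 to 47.6% at P1, 57.9 to 61.3% at P8, 75.5 to 80.2% at P14 and 82.3 to 86.1% at P30. Kcnk9 held 41.0 to 49.7% at P1, 31.4 to 39.3% at P8, 17.2 to 21.9% at P14 and 10.8 to 11.8% at P30. From P1 on, neither gene's ranges overlapped between neighbouring ages. In shares of summed CPM, which leave out gene length, Kcnk1 held 35.3 to 48.5% at P1, 62.7 to 67.2% at P8, 79.1 to 83.5% at P14 and 79.7 to 87.8% at P30, so that P14 and P30 overlapped. Kcnk9 then held a mean of 25.7% at P1 and 6.20% at P30. Kcnk10 accounted for a mean of 11.8% of summed TPM at E15.5 and 0.922% at P30 (34.8% and 3.62% without length), and Kcnk3 for 4.52% and 1.39% of summed TPM (5.57% and 2.47% without length).

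**Figure D3:**
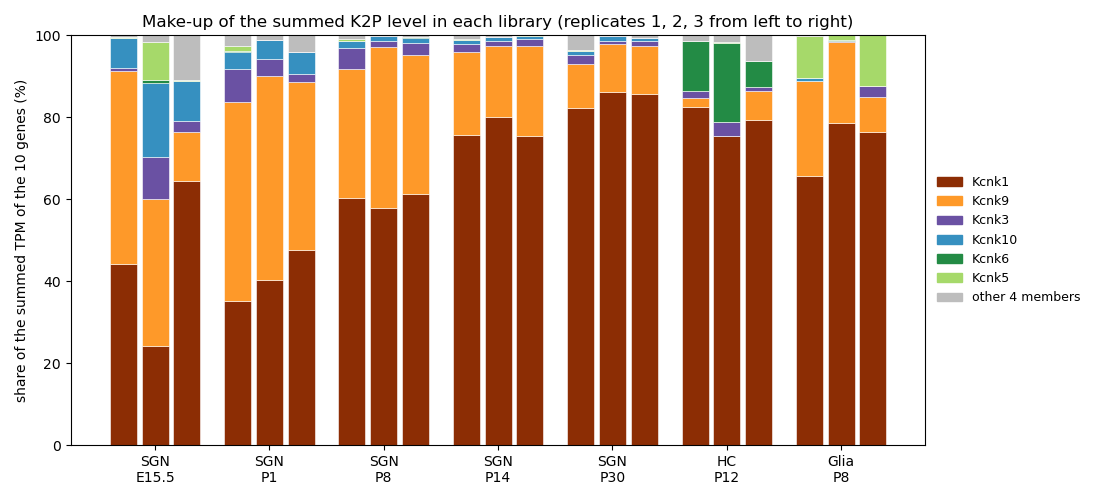
Share (%) of each gene in the summed TPM of the 10 K2P genes, 1 bar per library with replicates 1 to 3 from left to right in each group. The Kcnk1 share in SGNs grew from 35.3 to 47.6% at P1 to 82.3 to 86.1% at P30, Kcnk6 is visible in HCs and Kcnk5 in glia.

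The ratio of Kcnk1 to Kcnk9 in TPM, which is free of library depth, was 0.728, 0.809 and 1.16 in the P1 libraries, 1.92, 1.47 and 1.81 at P8, 3.74, 4.66 and 3.45 at P14, and 7.61, 7.28 and 7.40 at P30. From P1 to P30 each age lay wholly above the one before. At E15.5, where counts were lower, the 3 libraries scattered at 0.938, 0.670 and 5.42 and replicate 3 stood apart. The absolute value of the ratio rests on the deposited gene lengths, whereas its change with age does not.

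**Figure D4:**
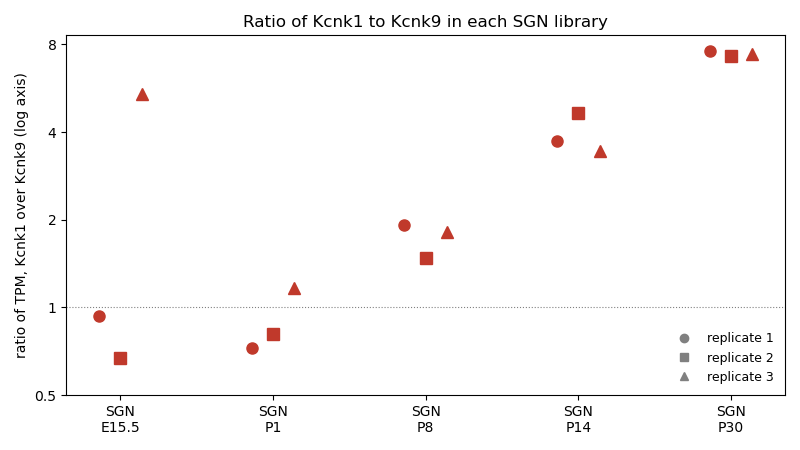
Ratio of Kcnk1 to Kcnk9 (TPM, log axis) in each SGN library by age. The P1 libraries lie at 0.728 to 1.16 and the P30 libraries at 7.28 to 7.61, and from P1 on no 2 ages overlap.

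HCs were compared with SGNs both as the mean over the 5 SGN ages and against P14 SGNs, the SGN age nearest after P12, with a call set at adjusted p below 0.01 and more than a 4-fold difference. Kcnk1 had the highest level of the 10 genes in HCs as well, and Kcnk6, the TWIK-2 subunit, was next by mean CPM. It stood at 12.1, 13.7 and 4.07 CPM in the 3 HC libraries (148, 235 and 73 counts), at 0.427 CPM or less in every SGN library and at 0.101, 0.167 and 0 CPM in glia. The HC libraries did not overlap those of the other cell types. With counts and library totals each pooled over the libraries of a cell type, the level in HCs was 126 times that in SGNs (exact 95% interval 86.4 to 190.1, from 456 against 29 counts, or 72.2 to 221 with counts halved). It was 102 times that in glia (39.4 to 374, against 4 counts, or 27.8 to 844 with counts halved). All 3 P14 libraries had 0 counts, which puts Kcnk6 in P14 SGNs at least 75.5-fold lower than in HCs when set at the floor of 3 counts. That bound takes each count as a separate event and would be lower if both mates had been counted. The log2 difference (SGN mean minus HC) was -6.97 ± 0.65, and -7.59 without HC replicate 3.

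Kcnk9 was low in HCs, and Kcnk10 did not exceed the floor there. Kcnk9 had 8, 0 and 24 counts in the HC libraries (0.656, 0 and 1.34 CPM), against 2.65 CPM or more in all 15 SGN libraries. With counts and library totals pooled as above, its level in SGNs was 51.3 times that in HCs (exact 95% interval 36.3 to 75.1, or 31.6 to 89.9 with counts halved). Kcnk10 had 2, 0 and 0 counts in HCs and 6.78 CPM or more in each SGN library, a ratio of pooled levels of 413 (114 to 3414). With counts halved the interval was 74.1 to 16333, so the size of this ratio is poorly set by the 2 counts in HCs. Kcnk1 stood at 43.8, 28.9 and 28.2 CPM in HCs, above all E15.5 libraries and below all P8, P14 and P30 libraries. Kcnk3 read 1.56, 2.28 and 0.669 CPM in HCs, within the range of E15.5 SGNs and below the other ages.

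Against HCs, limma called 5 of the 7 members tested for the SGN mean, 4 higher in SGNs and Kcnk6 lower, as a description, where 26.8% of the 17531 genes tested were called, 10.5% higher and 16.2% lower. The log2 differences (SGN minus HC) were 2.20 ± 0.50 for Kcnk1 (limma, adjusted p = 8.8e-04) and 2.99 ± 0.76 for Kcnk3. They were 6.84 ± 1.18 for Kcnk9 and 8.75 ± 1.04 for Kcnk10, where the size depends on how counts of 0 are offset. The Kcnk9 difference was 5.13 without HC replicate 2 and 7.95 without HC replicate 3, and that of Kcnk10 was 9.69 without HC replicate 1. The same 5 members were called for P14 SGNs against HCs, with a background of 23.1%, and Kcnk1 then differed by 3.75 ± 0.52 (limma, adjusted p = 6.3e-06). In that comparison Kcnk9 read 7.63, between 5.92 without HC replicate 2 and 8.75 without HC replicate 3, and Kcnk10 read 8.66, or 9.60 without HC replicate 1. Kcnk3 lost its call for the SGN mean without HC replicate 1 (3.09) or HC replicate 3 (2.46), and for P14 without HC replicate 3 (2.99).

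In glia the member that stood out was Kcnk5, the alkaline-activated TASK-2, and it rested on 1 library. Kcnk5 read 22.3, 1.34 and 1.54 CPM in the 3 glial libraries (440, 16 and 16 counts), at most 4.91 CPM in SGNs and 0, 0.117 and 0 CPM in HCs. Glial replicate 1 lay above every other library, while replicates 2 and 3 were within the range of the SGN libraries. In order of replicate, the glial libraries held 2215, 3415 and 3007 CPM of blood and connective tissue markers, lowest in replicate 1. The part of such RNA in the Kcnk5 values was not tested. The log2 difference (SGN minus glia) was -3.71 ± 1.10, past both thresholds, and without glial replicate 1 it was -2.13 and not past them. It was -4.49 without glial replicate 2 and -4.38 without glial replicate 3, and leaving out any 1 of 10 SGN libraries also ended the call. With counts and library totals pooled, the Kcnk5 level in glia was 265 times that in HCs (exact 95% interval 72.9 to 2194, from 472 against 2 counts). With counts halved the interval was 47.1 to 10509. All 3 HC libraries were under the floor of 3 counts, and 440 of the 472 glial counts were in replicate 1. The call was lost without glial replicate 1 (log2 difference of HC minus glia -5.25), HC replicate 1 or HC replicate 3.

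Kcnk3 and Kcnk10 were lower in glia than in SGNs. Kcnk3 had 8, 2 and 4 counts in glia (0.405, 0.167 and 0.386 CPM), below every SGN library, with a log2 difference of 4.49 ± 0.87. Kcnk10 had 72, 3 and 0 counts (3.64, 0.251 and 0 CPM), also below every SGN library, with a log2 difference of 5.40 ± 0.95. Without glial replicate 1 the Kcnk10 difference was 7.14, and without glial replicate 3 it was 3.86. Kcnk1 read 94.1, 55.6 and 6.27 CPM in glia and Kcnk9 17.97, 7.53 and 0.386 CPM, and both overlapped the SGN libraries. The order of the 3 glial libraries in Kcnk1, Kcnk9 and Kcnk10 was the order of their summed SGN markers (1488, 318 and 152 CPM). Kcnk3 did not follow that order, at 0.405, 0.167 and 0.386 CPM. The part of SGN RNA in these values was not tested.

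For the SGN mean against glia, limma called 3 of 7 members, 2 higher in SGNs and Kcnk5 lower, with a background of 24.7% (14.3% higher and 10.4% lower). For Kcnk1 the log2 difference was 1.44 ± 0.53 (limma, adjusted p = 0.028), short of the threshold of 0.01, and Kcnk1 passed without glial replicate 1 (2.43, adjusted p = 0.0069). Kcnk9 differed by 2.403 ± 0.86 and was not called. At the matched age of P8, limma called 4 of 7 members, all higher in SGNs, against a background of 20.9% (13.4% higher). Kcnk1 differed there by 2.46 ± 0.54 (limma, adjusted p = 0.0011), Kcnk9 by 3.85 ± 0.87, Kcnk3 by 5.66 ± 0.90 and Kcnk10 by 5.71 ± 0.98. Libraries of P8 SGNs and glia did not overlap for these 4 genes, nor for Kcnk2, which was not called. How many of all genes tested also did not overlap was not counted. The P8 differences depended on which glial library was present: without glial replicate 1 those of Kcnk1, Kcnk9 and Kcnk10 were 3.44, 5.16 and 7.45, and without glial replicate 3 they were 1.48, 2.38 and 4.17, where Kcnk1 fell under the 4-fold limit. Between HCs and glia the 2 members past the thresholds, of 7, were Kcnk5 and Kcnk6, both tested only because of the cell type where they were high, and the background was 24.4%. Without glial replicate 3, Kcnk9 and Kcnk10 were also called as lower in HCs (-5.91, limma adjusted p = 6.0e-04, and -4.89, adjusted p = 0.0094).

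Kcnk2, the stretch-gated TREK-1, varied widely between libraries of an age. It reached 15.7 CPM in P30 replicate 1 (584 counts) and 0 and 0.0797 CPM in the other P30 libraries, and 7.26 CPM in E15.5 replicate 3. At P1 it was at 4.68, 2.72 and 1.73 CPM, at P8 at 4.61, 0.730 and 2.17 CPM, and at P14 at 2.32, 0.251 and 0.207 CPM. Among the SGN libraries of an age, Kcnk2 and Kcnk5 were both highest in replicate 1 at P1, P8, P14 and P30. Replicate 1 also had the highest blood and connective tissue markers of each age, whose part in these values was not tested. At E15.5 replicate 1 had the highest of these markers as well (278 CPM), but there both genes were lowest in it, Kcnk2 at 0.310 CPM against 0.854 and 7.26 and Kcnk5 at 0.155 CPM against 4.91 and 0.231. Kcnk2 passed no test.

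**Figure D5:**
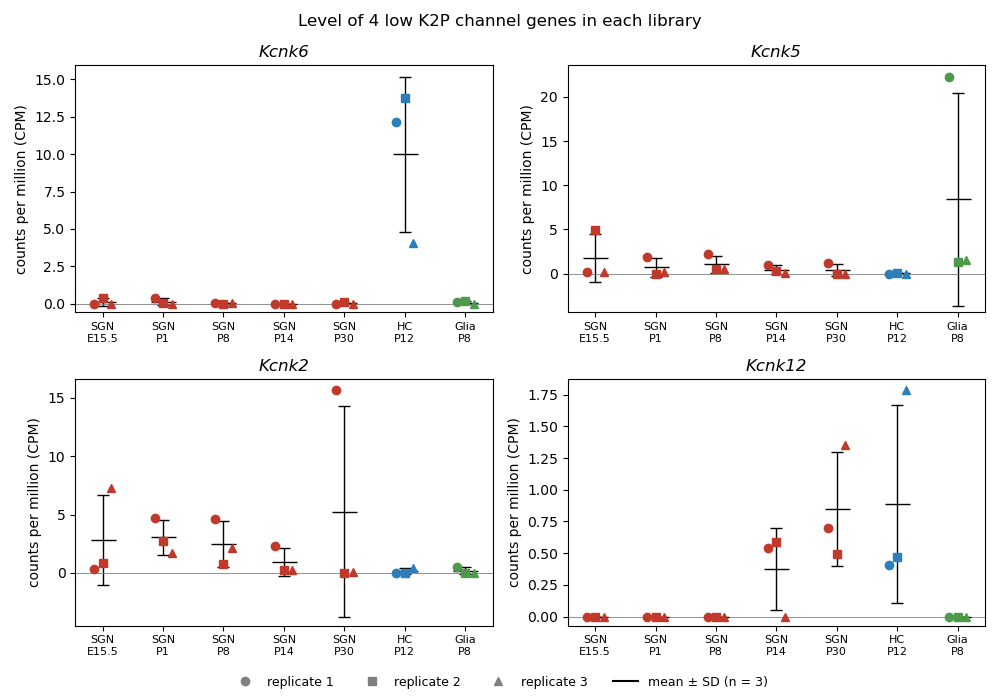
CPM of Kcnk6, Kcnk5, Kcnk2 and Kcnk12 in each library (points) with the group mean and SD. Kcnk6 lies at 4.07 to 13.7 CPM in HCs and at 0.427 CPM or less in all other libraries, and the high values of Kcnk5 in glia (22.3 CPM) and Kcnk2 at P30 (15.7 CPM) are single libraries.

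Kcnk12, the THIK-2 subunit, had 0 counts in all libraries at E15.5, P1 and P8 and in glia, 14, 14 and 0 counts at P14, 26, 10 and 34 at P30, and 5, 8 and 32 in HCs. It was thus above the floor of 3 counts in SGNs at P14 and P30 alone, in 5 of those 6 libraries. Kcnk13 had at most 22 counts, in P14 replicate 1, and Kcnk4, the TRAAK channel, at most 103, in P1 replicate 3, with 16 or fewer in all other libraries. None of these 3 genes passed the filter. In the fits without it, Kcnk12 was called in 5 of 12 comparisons. P8 to P30 and E15.5 to P30 were among them, and in each the earlier age had 0 counts. Kcnk4 was called in 1 of 12, as higher in SGNs than in glia, where all 3 libraries had 0 counts, and Kcnk13 in 0 of 12. The calls of Kcnk12 and Kcnk4 depend on how counts of 0 are offset, so they are a description and no p is given. Exons of Kcnk4 overlap those of Catsperz on the same strand by 587 bases, and reads there cannot be told apart.

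The other 4 K2P genes of the table also failed the filter. Kcnk16 (TALK-1) had 0 counts in all 21 libraries. Kcnk7 and Kcnk15, which carry no current on their own, reached 34 and 37 counts at most. Kcnk18 (TRESK), a calcineurin-regulated channel of sensory neurons, had 633 counts in P30 replicate 1, 130 and 98 in P14 replicates 1 and 3, 106 in P1 replicate 1 and 86 in E15.5 replicate 2, with 4 or fewer in all others.

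The genes whose log2 CPM followed each member most closely over the 21 libraries were listed by Pearson r, as a description across libraries that share groups. Kcnk10 was matched by Shox2 (r = 0.987), Edil3 (0.985) and Elavl4 (0.981), and Kcnk3 by Fat3 (0.946), Mrpl30 (0.934) and Ccdc85a (0.930). Kcnk1 was matched by Ubr3 (0.953) and Pfkm (0.946), and Kcnk9 by Syngr3 (0.948), AI854703 (0.942) and Car10 (0.935). Kcnk6 was nearest to Gm15961 (0.916), 6530403H02Rik (0.905) and Tjap1 (0.892). Kcnk5 was nearest to Sema3c (0.883), Ogn (0.854) and Fbln2 (0.844), of which Ogn and Fbln2 encode extracellular matrix proteins, and Kcnk2 to Cdh12 (0.843), Gm10222 (0.815) and Slit1 (0.803). Among members over the 15 SGN libraries, r was 0.721 for Kcnk1 and Kcnk9, 0.698 for Kcnk3 and Kcnk9 and 0.584 for Kcnk1 and Kcnk3. Within ages, after the age means were removed, the same values were -0.00731, -0.431 and -0.658.

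Proteins that traffic or bind K2P channels (18 genes, all tested) are given by their counts and medians. From E15.5 to P1, 1 gene was called against the background of 8.26% given above, with a list median of 0.16 against 0.07 for all genes. This gene was Arf6, a GTPase of TWIK-1 endocytosis, higher by 1.13 on the log2 scale (limma, adjusted p = 0.038). From P1 to P8 the 2 calls of 18 (background 7.44%) were Akap5, the anchoring protein that binds TREK-1, which fell by 1.81 (limma, adjusted p = 0.0052), and Psd, the Arf6 exchange factor EFA6A, which fell by 1.04 (adjusted p = 0.015). From E15.5 to P30, 6 of 18 rose and 3 fell, where 34.6% of all genes were called, with a list median of 0.66 against -0.01 for all genes. The 3 with the largest change all fell: Akap5 by 4.40, Psd by 2.64 and Senp1, a SUMO protease, by 1.85 (limma, adjusted p of 7.2e-05, 1.1e-05 and 2.2e-04). In SGNs against HCs 6 of 18 were higher and 0 lower, against 10.5% and 16.2% of all genes, among them the microtubule-associated Map6 (5.58) and the adaptor genes Ywhah (3.85) and Ywhag (3.65), with a list median of 0.87 against 0.02 for all genes. Against glia 4 of 18 were higher and 0 lower, against 14.3% and 10.4% of all genes, with Map2 (3.83), Ywhag (3.05) and Map6 (2.65) the largest differences.

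Gq signalling closes TASK and TREK channels. The list of Gq and lipid signalling genes, which also holds kinases and phosphatases outside that pathway, numbered 19, of which 18 were tested. From E15.5 to P1, 2 of 18 rose and 1 fell (background 8.26%), namely the phospholipase Plcb1 (log2 fold change 3.88, limma adjusted p = 1.2e-04), the protein kinase C gene Prkcb (1.16, adjusted p = 0.012) and the cGMP-dependent kinase Prkg1 (-1.36, adjusted p = 0.0033). From P1 to P8, 2 of 18 rose (background 7.44%), Prkce (2.25, limma adjusted p = 0.0068) and Plcb4 (1.15, adjusted p = 0.013). Prkce and Plcb4 were also the 2 calls of 18 from P8 to P30 (background 4.71%), higher by 1.58 (limma, adjusted p = 0.01) and 1.49 (adjusted p = 0.001). From E15.5 to P30, 6 of 18 rose and 3 fell (background 34.6%), with a list median of -0.01, equal to that of all genes. In SGNs 3 of 18 were higher than in HCs and 3 of 18 higher than in glia, where 10.5% and 14.3% of all genes were higher, with Prkcb the largest in both (6.73 and 5.11).

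The sodium leak channel NALCN carries the depolarising leak that opposes K2P current, and 4 of the 5 genes of its complex in the table were tested. Unc80, a scaffold subunit, rose from P1 to P8 (log2 fold change 1.21, limma adjusted p = 1.1e-04) and from P8 to P30 (1.27, adjusted p = 3.4e-05). Fam155a, an auxiliary subunit, rose from P1 to P8 (1.08, limma adjusted p = 0.029). Over the whole course from E15.5 to P30 2 of 4 were called (background 34.6%), Unc80 at 3.31 and Fam155a at 3.06. All 4 were higher in SGNs than in glia (14.3% of all genes), led by Fam155a (4.34), Unc79 (3.39) and Unc80 (3.06), and 0 of 4 were called between the SGN mean and HCs by limma, edgeR or DESeq2 (3 of 4 had an unadjusted p under 0.05 in each), where the list median was 1.24 against 0.02 for all genes. At an age nearer to P12, Fam155a was called as higher in P14 SGNs than in HCs (2.24, limma adjusted p = 1.7e-04), 1 of 4 against a background of 23.1%.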

How the data were processed

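RNA-Seq libraries of picked or sorted cells (PicoPure RNA, Ovation RNA-Seq V2 amplification) were aligned by the authors with STAR 2.4.0i to mm10 and counted per gene with featureCounts on GENCODE vM15, and the deposited values were raw counts in 1 table of 21 columns. Settings for strand, read pairs and multiple hits are not given in the sources used here. The table had 52550 genes, of which 52403 were given a symbol from GENCODE M21. HCs were sorted by FACS per the methods and manually per the labels.

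Counts were tested with limma-voom (limma 3.58.1, edgeR 4.0.16, TMM, R 4.3.3) after keeping genes above 1 CPM in all replicates of at least 1 group: 15 SGN libraries and 15113 genes for ages (adjusted p below 0.05, 2-fold), and 21 libraries and 17531 genes for cell types (adjusted p below 0.01, 4-fold). Both fits were tested on simulated data. The members, lists and named-gene rule (all K2P genes, up to 3 called genes per list and comparison with the largest change, the 3 most alike genes) were chosen with earlier results of these data known. CPM was used across libraries, a choice made after seeing that the short gene Gm23935 held 8.17 to 68.1% of the TPM sum but 0.186 to 4.70% of counts. TPM was kept within libraries. Totals of 10368240 to 37287489 counts set the precision, and mitochondrial genes held 9.54 to 24.2%. Among groups with shared replicate numbers, same-numbered libraries deviated together above r = 0.1 for all 3 numbers between P8 and P30 (0.378, 0.172 and 0.146), where a replicate block left the count of called members unchanged. Alternatives were DESeq2 1.42.0, edgeR quasi-likelihood, other scalings, no filter, quality weights, a replicate block and leaving out each library.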

Additional observations from a re-analysis of the deposited data

How the results depend on the processing

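Kcnk1 and Kcnk9 over all ages were called under all 8 other settings and without any 1 library. Of 26 called fold changes of members, 435 of 484 alternatives gave the same call, 49 missed a threshold and 0 turned the direction. Alternatives without an adjusted p were not counted. These fold changes include comparisons of cell types for members that entered through the cell type where they were high. Fits that leave out 1 library share all the others, so this tally is a description and supports nothing. The number of members called fell to 1 from E15.5 to P1 without the filter, with quality weights or with the compared groups alone (Kcnk9 remained), and to 1 from P1 to P8 with library size only, edgeR, DESeq2 or quality weights (Kcnk1 remained). From P8 to P30 it was 2 without the filter (adding Kcnk12) and 2 with quality weights (adding Kcnk3). With quality weights it was 0 for the SGN mean against glia, 1 for HCs against glia (Kcnk5) and 0 for P8 SGNs against glia, and the last was 2 with edgeR or with the compared groups alone (Kcnk3 and Kcnk10). The causes were not tested. With a replicate block the count was 3 from E15.5 to P1, 3 from E15.5 to P30 (each adding Kcnk3) and 3 between HCs and glia (adding Kcnk9), and it was unchanged elsewhere. Except between P8 and P30, same-numbered libraries did not deviate together above r = 0.1 for all 3 numbers. The replicate 1 libraries of P1, P8, P14 and P30 did so in every pair, with r from 0.249 to 0.378.

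Leaving out 1 library gave 1 to 2 calls from E15.5 to P1, 1 to 2 from P1 to P8, 0 to 0 from P8 to P14 and from P14 to P30, 2 to 3 from E15.5 to P30, 1 to 1 from P8 to P30, 2 to 3 over all ages, 4 to 5 for the SGN mean and for P14 against HCs, 2 to 3 for the SGN mean against glia, 1 to 4 for HCs against glia and 3 to 4 for P8 against glia. Direction turned for 4 changes that were not called: over the libraries left out in turn, Kcnk10 read -0.52 to 0.13 from P1 to P8 (turned without P1 replicate 3), Kcnk1 -0.26 to 0.048 from P14 to P30 (without P30 replicate 1), Kcnk10 -0.50 to 0.040 from E15.5 to P30 (without E15.5 replicate 2) and Kcnk1 -1.74 to 0.22 between HCs and glia (without glial replicate 1). Kcnk5 against glia was lost without 11 of 18 libraries, and DESeq2 gave no adjusted p for it. Kcnk3 over all ages was lost with library size only, no filter or quality weights (adjusted p in limma 0.0613, 0.0507 and 0.172). Kcnk4, Kcnk12 and Kcnk13 were tested only without the filter.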
